A study of Homo sapiens with 12 samples.

Results

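The regions described here are STAT5B peaks on chromosomes 1 and 2 of human T cell acute lymphoblastic leukemia (T-ALL) lines whose summit lay in a gene desert and had no STAT motif beside it. A summit, the base at which the peak caller placed the maximum of a peak, was taken as a member if it lay more than 50 kb outside every protein-coding gene body of GENCODE and if the palindrome TTCNNNGAA was absent within 50 bp of it in GRCh38. Of the 24844 peaks in the 6 lists, 20803 lay on chromosomes 1 and 2, and 4982 of these were members. There were 1457 members among 5878 such peaks in DND-41, 259 among 877 in KOPT-K1, 989 among 4324 in SUP-T13, 973 among 2991 in HSB-2, 944 among 4836 in JURKAT, and 360 among 1897 in LOUCY. Another 357 desert summits had the palindrome and were left out of the set. The 2 chromosomes held most peaks of some lists (5878 of 6015 in DND-41 and 4324 of 4368 in SUP-T13) but 877 of 2755 in KOPT-K1. The cause was not tested, and whether the lists are complete is not known here. Both bear on each statement below on where members lie.

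The labels grade each line by its STAT5 activation. DND-41, KOPT-K1, SUP-T13, and HSB-2 are graded high and are called high pY-STAT5 here, and JURKAT and LOUCY are graded low (low pY-STAT5). All 6 are established precursor T cell lines. The labels give their genotype as wild type, which does not speak to the mutations that leukemia lines carry. They differ in many ways besides pY-STAT5, so the group and the line cannot be told apart. Each line had 1 STAT5B ChIP-Seq library and 1 input library, with peaks called per line against its own input, so the values of a line have no replicate and each p-value below measures the spread between lines. The read depth of the libraries is not given in the peak lists.

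STAT5 proteins are transcription factors that become tyrosine-phosphorylated downstream of cytokine receptors such as the IL-7 receptor, pair up, and bind a palindrome of short matching sites around a spacer, known as the GAS motif. Gene deserts are long stretches without protein-coding genes that can hold distant enhancers but also much repeated DNA. Around centromeres they hold much satellite DNA, in which short units follow each other in near-identical copies, so that a read can match many places.

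The sequences at the best-ranked members of 5 of the lines are given first. Of these, 4 lie in deserts that span a centromere, which hold 3.61% of all members, so they do not stand for members at large. Members were ranked in each line by −log10 q, where q is the false discovery rate that the authors' peak caller gave. The best-ranked member of KOPT-K1 is not shown. It lies outside the centromeric deserts and has the largest −log10 q of any member (176). Each line below gives the reference sequence of the plus strand of GRCh38 within 50 bp of the summit, with the 9 bases closest to the palindrome in capitals (the most of its 6 fixed bases matched, ties decided by nearness to the summit).
DND-41, chr1:143232930-143233030: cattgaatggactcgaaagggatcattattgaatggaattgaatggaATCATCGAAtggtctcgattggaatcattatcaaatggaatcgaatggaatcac
HSB-2, chr1:120230132-120230232: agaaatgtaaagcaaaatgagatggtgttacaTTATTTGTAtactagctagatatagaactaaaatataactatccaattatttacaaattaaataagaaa
SUP-T13, chr2:92671898-92671998: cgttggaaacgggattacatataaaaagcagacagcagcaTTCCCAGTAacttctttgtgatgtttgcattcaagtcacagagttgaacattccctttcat
LOUCY, chr1:121775376-121775476: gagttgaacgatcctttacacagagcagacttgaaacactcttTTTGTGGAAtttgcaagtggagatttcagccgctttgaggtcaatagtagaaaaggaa
JURKAT, chr1:143232911-143233011: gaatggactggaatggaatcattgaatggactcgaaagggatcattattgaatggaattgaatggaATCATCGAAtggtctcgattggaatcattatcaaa

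The DND-41 and JURKAT summits lay 19 bp apart in DNA rich in GGAAT, a unit known from pericentromeric satellites, with fold enrichments of 3.71 and 3.73 and −log10 q of 55.6 and 86.2. The LOUCY summit had a fold enrichment of 4.01, and the 31 bases at its centre occurred 2352 times on chromosomes 1 and 2, counting both strands. The SUP-T13 summit, between RPIA and AQP7B at the centromere of chromosome 2, had a fold enrichment of 6.55, and its central 31 bases occurred 329 times. The HSB-2 summit lay in an annotated unprocessed pseudogene 53.7 kb from SEC22B, a gene for a vesicle trafficking protein, in DNA of 21.8% GC, with a fold enrichment of 5.77 and 2 copies of its central 31 bases. Of these 5 sequences, 4 matched 5 of the 6 fixed bases of the palindrome and the HSB-2 sequence matched 4.

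For comparison, the group of members found in the most lines and 1 of the 3 groups of 4 lines are shown. The remaining groups of 4 lines are not shown and lie outside the centromeric deserts, unlike the one given. Member summits were grouped when neighbours lay within 1 kb of each other, and the sequence given is that of the summit with the highest fold enrichment in the group, marked in the same way.
Group 1, SUP-T13, chr1:144103635-144103735: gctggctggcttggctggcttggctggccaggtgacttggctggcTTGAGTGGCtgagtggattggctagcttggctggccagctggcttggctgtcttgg
Group 2, DND-41, chr1:125080350-125080450: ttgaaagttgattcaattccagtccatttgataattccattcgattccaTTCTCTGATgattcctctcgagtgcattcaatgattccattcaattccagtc

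Group 1 held summits of 5 lines, all but KOPT-K1, within 652 bp, in a tandem repeat between FAM72C and PPIAL4E on the long arm of chromosome 1. The fold enrichment there was 3.40 in SUP-T13, 3.17 in HSB-2, 2.91 in JURKAT, 2.38 in LOUCY, and 2.29 in DND-41, and the GC content at the summit was 62.4% to 69.3%. Both low pY-STAT5 lines were thus within the range of the high ones. At these summits the central 31 bases occurred 4 times in SUP-T13 and DND-41, 2 times in HSB-2 and JURKAT, and 18 times in LOUCY. The interval was 2.45 Mb long in SUP-T13 and 0.832 Mb in LOUCY. The −log10 q ran from 2.78 (DND-41) to 12.6 (HSB-2). Group 2 held DND-41, HSB-2, SUP-T13, and JURKAT within 908 bp in the centromeric desert of chromosome 1, with fold enrichments of 1.99 to 2.49. The central 31 bases occurred 1 time on chromosomes 1 and 2 at the summits of DND-41, SUP-T13, and JURKAT. Those of HSB-2 occurred 25 times. No repeat annotation was used, so classes of satellite DNA were not assigned.

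Over both chromosomes together, desert summits were in most lines not more frequent than the deserts themselves. Deserts as defined here made up 32.9% of the sequenced bases of both chromosomes (27.0% of chromosome 1 and 38.6% of chromosome 2). All desert summits, with or without the palindrome, made up 27.7% of the chromosome 1 and 2 peaks in DND-41, 30.8% in KOPT-K1, 23.7% in SUP-T13, 35.3% in HSB-2, 20.3% in JURKAT, and 19.9% in LOUCY. Over both chromosomes the share lay above that of the sequence in HSB-2 only. The mean log2 ratio of the 2 shares was -0.36 ± 0.33 (SD, n = 6 lines; exact two-sided sign-flip permutation test over lines, p = 0.0938, adjusted p = 0.344 over 11 tests). The smallest p this test allows with 6 lines is 0.0312, and adjusted over the 11 tests no p could go below 0.0573. On chromosome 1, members alone were 1329 of 4732 peaks in DND-41, 869 of 2556 in HSB-2, and 12 of 29 in KOPT-K1. These lay above the 27.0% of that chromosome, unlike those of SUP-T13, LOUCY, and JURKAT. The mean log2 ratio was -0.244 with the desert share expected per chromosome and -0.320 on chromosome 1 alone.

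Members made up 24.8%, 29.5%, 22.9%, and 32.5% of the chromosome 1 and 2 peaks of DND-41, KOPT-K1, SUP-T13, and HSB-2, and 19.5% and 19.0% of those of JURKAT and LOUCY. The high and low pY-STAT5 lines did not overlap over both chromosomes, but did on chromosome 1 alone, where members were 434 of 2813 peaks in SUP-T13, below the 326 of 1655 in LOUCY and 836 of 4366 in JURKAT (difference of the group means 10.3 percentage points, exact permutation test, p = 0.4). The high mean on chromosome 1 includes KOPT-K1, which had 12 members among only 29 peaks there, so this difference leans on a small list. Over both chromosomes the means were 27.4 ± 4.40% (SD, n = 4) and 19.2 ± 0.384% (SD, n = 2), a difference of 8.18 percentage points (exact two-sided permutation test, p = 0.133, adjusted p = 0.344), and 0.133 is the smallest p that 4 lines against 2 allow. With 50 kb from any annotated gene required, the difference was 3.28 percentage points. Among peaks with a −log10 q of at least 5 it turned to -5.20 percentage points (exact permutation test, p = 0.4).

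The members were not spread along the chromosomes but piled up in stretches that differed from line to line. On chromosome 1 lay 91.2% of the members of DND-41, 89.3% of those of HSB-2, 90.6% of those of LOUCY, and 88.6% of those of JURKAT, but 43.9% of those of SUP-T13 and 4.63% of those of KOPT-K1. Counted in bins of 10 Mb, the fullest bin of LOUCY was 190 to 200 Mb of chromosome 1, with 192 members or 53.3% of its total. It was 100 to 110 Mb of chromosome 1 in DND-41 (422 members, 29.0%), 80 to 90 Mb in HSB-2 (167 members, 17.2%), and 140 to 150 Mb in JURKAT (161 members, 17.1%). In SUP-T13 it was 10 to 20 Mb of chromosome 2 (306 members, 30.9%) and in KOPT-K1 170 to 180 Mb of the same chromosome (72 members, 27.8%). The 6 lines thus had 6 different fullest bins.

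The other peaks of a line were partly in the same places. The fullest bin of KOPT-K1 members also held 36.1% of its 618 other peaks on these chromosomes, but that of LOUCY members held 3.58% of its 1537 other peaks and that of DND-41 members 7.28% of its 4421. These bins differed in desert sequence, with 2.19 Mb in that of KOPT-K1, 6.21 Mb in that of LOUCY, and 5.18 Mb in that of DND-41. Members lie in deserts by the rule and most other peaks lie outside them, so both counts also reflect how much desert a bin holds. Of the 50 bins on both chromosomes, 24 (JURKAT) to 40 (DND-41) held any peak of a line. The first chromosome 1 member of any line lay at 34.4 Mb (DND-41), and the last lay at 143 Mb in KOPT-K1, 179 Mb in HSB-2, 191 Mb in DND-41, 204 Mb in LOUCY, and 229 Mb in SUP-T13 and JURKAT.

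**Figure D1:**
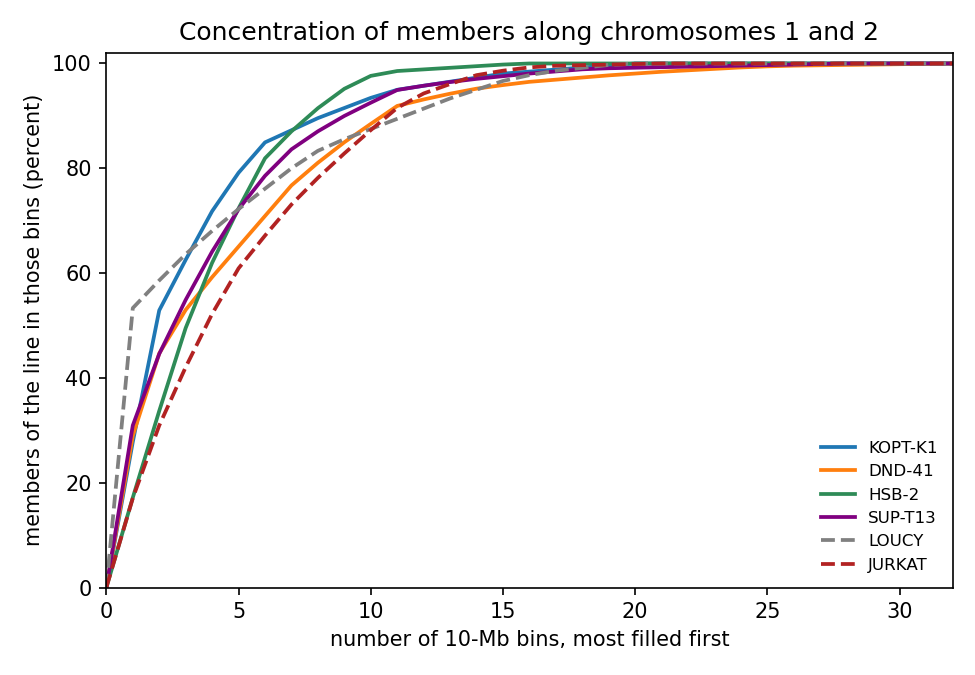
Cumulative percent of each line's members (vertical axis) in its 10-Mb bins of chromosomes 1 and 2, taken from the most to the least filled (horizontal axis), with low pY-STAT5 lines dashed. The first bin holds 53.3% of the members in LOUCY and 17.1% in JURKAT, and the first 3 bins hold 42.1% (JURKAT) to 63.6% (LOUCY).

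There were 457 deserts on the 2 chromosomes, 239 of which (52.3%) held a member of any line. The desert with the most was the 3.20 Mb between AMY1C, a salivary amylase gene, and PRMT6, an arginine methyltransferase gene, with 366 members, 270 of DND-41 and 93 of HSB-2, and 1 each of SUP-T13, LOUCY, and JURKAT. The desert before PTBP2, which encodes a neuronal splicing regulator, held 203 in 1.37 Mb, 124 of DND-41, 71 of HSB-2, and 8 of JURKAT. The centromeric desert of chromosome 1, between SRGAP2C and H3-7, held 170 members and was the single desert with members of all 6 lines. The desert between CDC73, a tumor suppressor gene, and KCNT2, a potassium channel gene, held 169 members of LOUCY (120) and SUP-T13 (49), and that between LMO4, a LIM-domain gene, and PKN2, a kinase gene, held 156 of DND-41, HSB-2, JURKAT, and KOPT-K1. The density was 147.7 members per sequenced Mb before PTBP2 and 39.2 in the centromeric desert. By contrast, 83 deserts held members of 1 line alone.

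A desert without members was often covered by called intervals. Of the 39 deserts over 1 Mb long, 15 had no member, among them FAM98A to CRIM1 (2.66 Mb), the longest, and FANCL to BCL11A (2.11 Mb), both on chromosome 2. In all 6 lines at least 99.5% of each of these lay inside such intervals. The same coverage, over 99% in all 6 lines, was found for 7 of the 15, and 6 of the 15 were untouched by any interval in any line. Such coverage was not confined to deserts without members. CTNNA2 to SUCLG1 (1 member) and RPIA to AQP7B (10 members) were also over 99% covered in all 6 lines. The coverage of AMY1C to PRMT6, with 366 members, ran from 0% (KOPT-K1) to 100% (SUP-T13, LOUCY, and JURKAT).

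Intervals reached widths of many megabases. The median interval length of members was 3747 bp in DND-41, 7953 bp in KOPT-K1, 2682 bp in SUP-T13, 7586 bp in HSB-2, 3848.5 bp in JURKAT, and 6906 bp in LOUCY. Each line also had members over 1 Mb long, 10 in LOUCY, 9 each in JURKAT and SUP-T13, 4 each in DND-41 and KOPT-K1, and 3 in HSB-2. Over all lines these were 39 of 4982 members, beside 192 of all 20803 peaks on the 2 chromosomes. In JURKAT (9 of 944 members, 17 of 4836 peaks) and LOUCY (10 of 360 members, 36 of 1897 peaks) members had the larger share. It was also marginally larger among members in SUP-T13 (9 of 989 members, 39 of 4324 peaks). The longest member interval was 91.6 Mb long in JURKAT, 56.9 Mb in LOUCY, 18.0 Mb in both SUP-T13 and HSB-2, 3.47 Mb in DND-41, and 2.58 Mb in KOPT-K1. In JURKAT, member intervals covered 68.0% of the desert bases of chromosome 2, although it had 108 members there. Intervals of any kind over 1 Mb covered 42.5% (KOPT-K1) to 76.7% (LOUCY) of the sequenced bases of chromosome 2. The HSB-2 and SUP-T13 intervals of 18.0 Mb lay inside the unsequenced gap beside the chromosome 1 centromere. In HSB-2, SUP-T13, and LOUCY 1 member summit each lay in that gap, where there is no sequence to search. These 3 were kept as members by the rule and left out of all counts of bases.

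Against gene body summits without the palindrome, desert intervals had no common direction in width. The median was longer in deserts by 1282 bp in KOPT-K1, 479 bp in HSB-2, and 222 bp in JURKAT, and shorter in DND-41, SUP-T13, and LOUCY, with differences of -149, -1312, and -3943 bp. The mean difference was -570 ± 1858 bp (SD, n = 6; exact sign-flip permutation test, p = 0.656, adjusted p = 0.802). Between the groups, the mean of the medians was 5492 ± 2670 bp (SD, n = 4) over the high and 5377 ± 2162 bp (SD, n = 2) over the low pY-STAT5 lines (exact permutation test, p = 1, adjusted p = 1). Leaving out 1 line gave differences from -1414 bp (without JURKAT) to 1643.5 bp (without LOUCY).

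The summit was often near an end of its interval. It lay in the outer 10% on either side in 34.7% of members in DND-41, 35.9% in KOPT-K1, 39.1% in SUP-T13, 39.3% in HSB-2, 42.6% in JURKAT, and 40.8% in LOUCY, where those outer parts make up 20% of the length. Over all 20803 summits the share was 39.9%, so members were close to the peaks at large. Though the summit was more than 50 kb away, 93 of the 4982 member intervals reached a protein-coding gene, from 0.617% of members in HSB-2 to 6.67% in LOUCY.

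The fold enrichment of members was low and close to that of other peaks. Its median was 2.18 in DND-41, 2.08 in KOPT-K1, 1.99 in SUP-T13, 1.88 in HSB-2, 1.96 in JURKAT, and 1.67 in LOUCY. The corresponding medians of gene body summits, in the same order of lines, were 2.19, 2.08, 2.02, 1.88, 1.92, and 1.72. The mean difference, desert minus gene body, was -0.0084 ± 0.031 (SD, n = 6; exact sign-flip permutation test, p = 0.5, adjusted p = 0.688). In members, the upper quartile was 2.36 or lower in each of the 6 lines. High pY-STAT5 lines had a mean of medians of 2.03 ± 0.128 (SD, n = 4) and low ones 1.81 ± 0.202 (SD, n = 2), with the JURKAT median above that of HSB-2 (difference 0.219, exact permutation test, p = 0.267, adjusted p = 0.489). The difference was 0.0762 without LOUCY and 0.362 without JURKAT.

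A −log10 q of at least 5 was reached by 6.33% of all chromosome 1 and 2 peaks, by 3.995% of gene body summits without the palindrome, and by 210 members (4.22%), 85 of DND-41, 17 of KOPT-K1, 35 of SUP-T13, 23 of HSB-2, 32 of JURKAT, and 18 of LOUCY. Desert summits that did have the palindrome reached it more often in each line. Their shares were 32.5% of 169 in DND-41, 36.4% of 11 in KOPT-K1, 22.2% of 36 in SUP-T13, and 25.0% of 84 in HSB-2, but 10.3% of 39 in JURKAT and 5.56% of 18 in LOUCY. The LOUCY share is that of 1 summit. The shares among members were 5.83%, 6.56%, 3.54%, 2.36%, 3.39%, and 5.00% in the same order of lines, and in JURKAT this was above the 2.21% of all its peaks. Gene body summits without the palindrome had 6.70%, 2.77%, 3.67%, 3.85%, 1.16%, and 5.18%. Members were thus above them in KOPT-K1 and JURKAT and below them in the other lines. The contrast between members and desert summits with the palindrome was looked at after the data had been seen and was not tested.

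**Figure D2:**
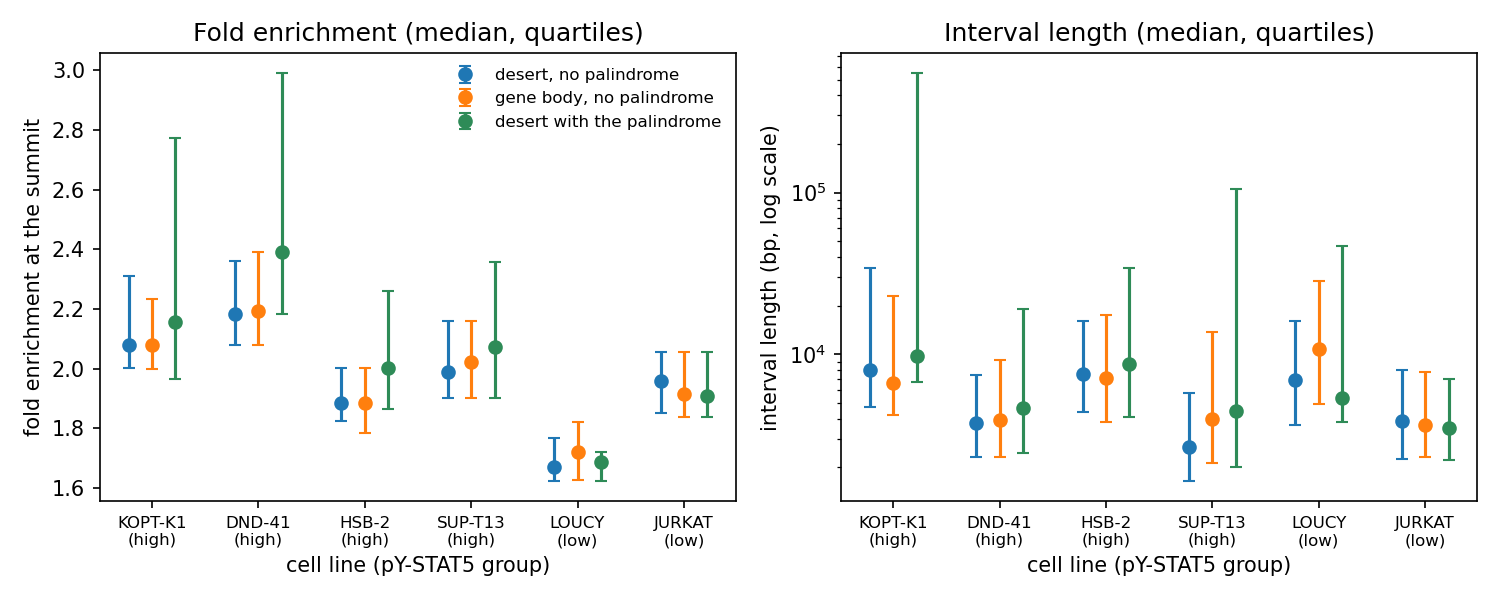
Median (points) and quartiles (bars) of fold enrichment (left) and of interval length in bp on a log scale (right) for members, gene body summits without the palindrome, and desert summits with it, by line. Member and gene body medians of fold enrichment differ by less than 0.05 in each line, and the LOUCY median of members (1.67) is the lowest.

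Pooled over lines, the medians of these values were alike just inside and just outside the threshold of 50 kb. The closest member, of SUP-T13, lay 50008 bp from a gene with a fold enrichment of 2.01, and the closest summit outside the set, of DND-41, lay exactly 50000 bp away with 2.18. The 377 members between 50 and 60 kb had a median fold enrichment of 2.00 and a median −log10 q of 2.42, and the 426 summits between 40 and 50 kb had 2.00 and 2.40. These medians pool lines whose own medians differ, so they do not show whether values changed there within a line. The median distance of members to the nearest protein-coding gene was 198 kb in DND-41, 277 kb in KOPT-K1, 180 kb in SUP-T13, 224 kb in HSB-2, 134 kb in JURKAT, and 233 kb in LOUCY.

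Strong members were more frequent at the centromeres than members at large, although most lay elsewhere. The deserts that span the centromeres, SRGAP2C to H3-7 on chromosome 1 and RPIA to AQP7B on chromosome 2, held 180 members (3.61%), while they make up 5.49% of sequenced desert bases. Of the 61 members with a −log10 q of at least 10, 24 lay in them (5 of 27 in DND-41), and of the 63 with a fold enrichment of at least 3, 11 did (2 of 37 in DND-41). They held 7 of the 10 best-ranked members of KOPT-K1, 5 of JURKAT, 4 of DND-41, and 3 each of HSB-2, SUP-T13, and LOUCY. In KOPT-K1 the median −log10 q was 72.9 for the 9 centromeric members and 2.15 for the other 250. The largest fold enrichment of any member, 12.2, was that of a KOPT-K1 interval of 2.49 Mb between RPIA and AQP7B. In JURKAT the 64 centromeric members had a lower median fold enrichment (1.91) than the rest (1.96).

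Repeated sequence at the summit could be measured from the reference alone. The central 31 bases occurred at least 2 times on chromosomes 1 and 2 at 14.7% of the 4979 members with sequence and at 15.6% of the 8210 gene body summits without the palindrome. Among members the share was 14.8% in DND-41, 19.3% in KOPT-K1, 10.3% in SUP-T13, 13.5% in HSB-2, 19.7% in JURKAT, and 13.6% in LOUCY. In the centromeric deserts it was 63.3%, and in the others 12.95%. Members with repeated central bases reached a −log10 q of at least 5 in 70 of 734 cases (9.54%) and those with single-copy ones in 140 of 4245 (3.30%). Among gene body summits without the palindrome the contrast was smaller, with 66 of 1280 (5.16%) and 262 of 6930 (3.78%). How reads from repeats were placed when the peaks were called, and what part this has in the values, was not tested. The GGAAT unit occurred at least 3 times on 1 strand at 38 members, all of them in the centromeric deserts.

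Base composition set the members apart from gene body summits in the same direction in each line. The mean GC content within 50 bp of the summit was 39.1 ± 9.53% (SD over members) in DND-41, 40.6 ± 10.2% in KOPT-K1, 40.04 ± 9.59% in SUP-T13, 37.3 ± 9.07% in HSB-2, 39.6 ± 9.53% in JURKAT, and 38.2 ± 10.3% in LOUCY. Gene body summits without the palindrome had 41.6%, 42.5%, 42.8%, 39.6%, 40.4%, and 42.1% in the same order. The difference, desert minus gene body, was -2.38 ± 1.02 percentage points (SD, n = 6) and below 0 in 6 of 6 lines (exact sign-flip permutation test, p = 0.0312, the smallest possible, adjusted p = 0.344). It was most negative in LOUCY (-3.94) and least in JURKAT (-0.854). Single members ranged from 2.97% (LOUCY) to 80.2% (JURKAT). Less than 20% GC was found at 63 of the 4982 members, 44 of the 8210 gene body summits without the palindrome, and 154 of all 20803 summits. More than 60% GC was found at 107, 275, and 1150 of these. Desert summits with the palindrome had a mean of 38.5%, 37.7%, 38.7%, 37.1%, 36.6%, and 34.8% in the order of lines above. These too lay below gene body summits in each line, so the lower GC content was not particular to members.

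The lower GC content was that of the surroundings as well. In equal windows placed 1000 bp up and down from the members, the GC content was 38.3% in DND-41, 37.3% in KOPT-K1, 38.8% in SUP-T13, 37.7% in HSB-2, 39.7% in JURKAT, and 37.7% in LOUCY. The summit exceeded these flanks by 3.33 percentage points in KOPT-K1, 1.27 in SUP-T13, 0.776 in DND-41, and 0.435 in LOUCY, while HSB-2 (-0.401) and JURKAT (-0.143) went the other way. The mean was 0.878 ± 1.35 percentage points (SD, n = 6; exact sign-flip permutation test, p = 0.156, adjusted p = 0.344), and 0.388 without KOPT-K1. High and low pY-STAT5 lines had a mean GC content of 39.3 ± 1.44% (SD, n = 4) and 38.9 ± 1.01% (SD, n = 2) at member summits (exact permutation test, p = 0.8, adjusted p = 0.88), and the difference turned without KOPT-K1 (-0.0582) or LOUCY (-0.321).

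Of 13 short motifs searched on both strands within 50 bp of the member summits, CG was the one that differed from the flanks in the same direction in all 6 lines. A CG was present at 46.1% of member summits and 43.2% of flank windows (means over lines), a difference of 2.94 ± 2.02 percentage points (SD, n = 6; exact sign-flip permutation test, p = 0.0312, adjusted p = 0.406 over 13 motifs). Gene body summits had a CG in 53.3%. The observed CG count was 0.208 of that expected from the C and G content over all members, 0.206 at desert summits with the palindrome, and, at summits without it, 0.233 in gene bodies, 0.245 near genes, and 0.530 in promoters.

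The motifs of lymphoid transcription factors had p above 0.05 against the flanks. With 6 lines and 13 motifs, a single motif at the smallest possible p of 0.0312 has an adjusted p of 0.406, so this does not show that they were alike. The largest difference was that of CTTTGA (TCF/LEF), found at 6.20% of member summits and 7.87% of flank windows and lower at summits in 5 of 6 lines (exact permutation test, p = 0.156). It was 3.09% and 8.30% in KOPT-K1, and 8.81% and 6.89% in SUP-T13, which went the other way. AGGAAG, the core of ETS sites, was found at 9.11% of member summits and 9.15% of flank windows (exact sign-flip permutation test, p = 0.875). The RUNX core TGTGGT was at 7.57% and 6.93% (exact permutation test, p = 0.219), the GATA core AGATAA at 8.41% and 8.98% (exact permutation test, p = 0.312), and the E-box CAGNTG at 17.7% and 17.9% (exact permutation test, p = 0.75). TGANTCA, the AP-1 site, was lower at summits in 5 of 6 lines, with 2.63% and 3.13% (exact permutation test, p = 0.0938). The cAMP response element TGACGTCA, the interferon regulatory factor repeat, GGGCGG, TTTTTTTT, and CACACACA had p from 0.125 to 1 in the same test. The adjusted p of these 11 motifs and of the palindrome with a 4-base spacer (3.05% of summits, 3.38% of flank windows) ran from 0.406 to 1.

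The palindrome the rule removed was about as common near members as near gene body summits. Before its removal, it was present at 10.4% of desert summits in DND-41 against 3.66% of flank windows, and at 7.95% against 5.97% in HSB-2. The shares were 4.07% and 4.07% in KOPT-K1, 3.52% and 4.20% in SUP-T13, 3.97% and 3.36% in JURKAT, and 4.77% and 3.19% in LOUCY. The median distance from a member summit to the nearest palindrome was 919 bp, and 78.8% of member intervals, 68.8% (SUP-T13) to 92.3% (KOPT-K1), held at least 1. Gene body summits without it at the summit had a median distance of 1004.5 bp, with at least 1 in 77.3% of intervals. A sequence matching 5 of the 6 fixed bases was present at 43.9% of members, at 43.4% of the flank windows without the full palindrome, and at 39.4% of gene body summits. These counts describe letters in the reference and do not show binding.

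Member summits were seldom shared between lines. A summit of any other line lay within 1 kb for 187 members of DND-41 (12.8%), 13 of KOPT-K1 (5.02%), 82 of SUP-T13 (8.29%), 190 of HSB-2 (19.5%), 176 of JURKAT (18.6%), and 58 of LOUCY (16.1%), and for 18.2% of all chromosome 1 and 2 summits. Gene body summits without the palindrome had 17.7%, 6.65%, 14.4%, 21.8%, 16.6%, and 22.4% in the same order. Members thus had the lower share in 5 of 6 lines, JURKAT excepted. The difference was -3.20 ± 3.22 percentage points (SD, n = 6; exact sign-flip permutation test, p = 0.0938, adjusted p = 0.344). It was -1.50 without DND-41, -1.53 without LOUCY, and -1.55 without SUP-T13. At 5 kb in place of 1 kb it was -12.2 percentage points (p = 0.0312 in the same exact test), but among peaks with a −log10 q of at least 2 it was -0.500, and at 5 or more it turned to 11.1 (p = 0.0625 in the same exact test).

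Points beside the members also had summits of other lines nearby. At points 10 kb to either side of the members, another line's summit was within 1 kb in 10.5% of cases in DND-41, 1.54% in KOPT-K1, 5.16% in SUP-T13, 13.2% in HSB-2, 14.9% in JURKAT, and 8.19% in LOUCY. The member summits were above these points in each line, by the most in LOUCY (16.1% against 8.19%). Gene body summits exceeded their own points by less than members did in 5 of 6 lines, by 4.95 percentage points against 7.92 in LOUCY and 0.218 against 3.76 in JURKAT, for example, but by 2.44 against 2.30 in DND-41. Set against such points, members thus had the lower sharing in DND-41 alone, a comparison made after seeing the data and not tested. Within 100 bp, 31 members of DND-41, 3 of KOPT-K1, 19 of SUP-T13, 35 of HSB-2, 33 of JURKAT, and 11 of LOUCY had another line's summit. These were 1.16% (KOPT-K1) to 3.60% (HSB-2) of the members of a line. No such share of other summits is given here, so these counts do not set members apart from other peaks. The number of peaks in the other lists, which differs between lines, also sets how many can be near.

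Merged over lines, the members formed 4638 groups of neighbours within 1 kb, of which 4321 had summits of 1 line and 317 (6.83%) of 2 or more. There were 295 groups of 2 lines, 18 of 3, 3 of 4, 1 of 5, and 0 of 6. The pair with the most was DND-41 and HSB-2 (94 groups), followed by HSB-2 and JURKAT (73) and DND-41 and JURKAT (67). KOPT-K1 shared 8 groups with DND-41, 4 with JURKAT, and 0 with the other 3 lines. No group held all 4 high pY-STAT5 lines, 117 of the 317 had high pY-STAT5 lines alone, and 15 held both low ones. No such grouping of other summits is given here, so these counts do not set members apart from other peaks. As a share of each list, 10.5% of HSB-2 members had a DND-41 summit within 1 kb, and 6.73% of DND-41 members had an HSB-2 summit.

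Sharing was 11.4 ± 6.28% of members (SD, n = 4) over the high and 17.4 ± 1.79% (SD, n = 2) over the low pY-STAT5 lines (exact permutation test, p = 0.4, adjusted p = 0.629). The difference of -5.96 percentage points was -1.94 without SUP-T13 and -3.86 without KOPT-K1, and on chromosome 1 alone it turned to 3.74. HSB-2, a high line, had a larger share than both low ones. In the centromeric deserts the share over all lines was 24.4%, against 13.8% elsewhere, with HSB-2 the other way (17.0% against 19.7%). Counting any overlap of intervals as shared, 94.4% of DND-41, 98.8% of KOPT-K1, 96.0% of HSB-2, and 95.3% of JURKAT members were shared, but 60.2% of SUP-T13 and 50.3% of LOUCY members. With intervals of many megabases in other lists, overlap of intervals says little about a common summit.

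Long noncoding RNA genes were annotated at the members about as often as in the desert sequence at large, while pseudogenes were annotated more often in 3 of the 6 lines. Long noncoding RNA genes covered 35.0% of desert bases and held 1868 members (37.5%), from 31.96% in HSB-2 to 42.5% in LOUCY. Pseudogenes covered 1.95% of desert bases and held 239 members (4.80%), with 10.2% of the JURKAT, 6.18% of the DND-41, and 3.91% of the HSB-2 members but 1.94% of those of LOUCY, 1.16% of KOPT-K1, and 0.506% of SUP-T13.

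The nearest protein-coding genes were counted for a pair of gene lists. The 4982 members had 361 different nearest genes, 10.9% of the 3308 on both chromosomes. Of 21 genes for regulators of T cells and leukemia, 9 were nearest to a member, with 183 members in all. LMO4 had 88, in DND-41, HSB-2, JURKAT, and KOPT-K1, NFIA, a transcription factor gene, had 43, of which 34 in JURKAT, and IKZF2, which encodes the lymphoid factor Helios, had 26, of which 14 in SUP-T13. ICOS and CD28, genes of T cell costimulation, had 6 and 5, MYCN had 6, NR4A2 5, ZEB2 3, and CXCR4 1. Among the genes without a member were TAL1, GFI1, PTPRC, PROX1, RGS1, BCL11A, MEIS1, ID2, SOX11, STAT4, and CTLA4. Of 15 genes for neuronal adhesion and synapses, which often border large deserts, 10 were nearest to a member, with 301 members in all, led by NEGR1 (94), BRINP3 (69), and ADGRL2 (63). Both lists hold genes beside deserts, so these counts also reflect how much desert each gene borders.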

How the data were processed

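Before deposit, the authors removed poor reads (PRINSEQ-lite), mapped the rest to GRCh38 (BWA 0.7.15-r1140, SAMtools 1.4, versions from the supplemental methods), and called the peaks of each line over its input with MACS2. The options of the caller are not given in the sources used here. The deposited lists hold the fold enrichment at the summit (a ratio to background), −log10 p and −log10 q, and the offset of the summit from the interval start, which are the authors' values. The offset of the summit (another kind of value, a position) is as deposited. The lists do not state depth. The input libraries were not used here.

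Coordinates count from 1. Genes were taken from GENCODE version 44, and a promoter summit lay within 2 kb of a transcription start. Other summits were gene body, near gene (up to 50 kb), or desert. Values were summarised per line and compared over lines with exact two-sided sign-flip permutation tests (64 patterns) and exact permutation tests over 15 splits (p doubles the smaller one-sided share), with Benjamini-Hochberg adjustment over 11 tests, and over 13 motifs separately. Another motif, TTCCNGGA, was dropped after seeing the data because it is part of the palindrome, which the rule removes at summits but not in the flanks. Python 3.11.15, NumPy 2.4.6, pandas 2.3.3, and matplotlib 3.10.9 were used, and the functions were tested on simulated data. The regions named were the 2 members with the largest −log10 q in each line (ties by fold enrichment), the 4 groups in most lines (ties by mean fold enrichment), the 5 deserts with most members, and the 3 deserts over 1 Mb with the fewest per Mb, with the gene lists given. Some regions and genes so chosen are not reported here. The members and lists were chosen with earlier results of these data known. Alternatives covered the distance to genes, the palindrome and its window, −log10 q, interval length, the sharing criterion, the GC window, and leaving out each line.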

Additional observations from a re-analysis of the deposited data

How the results depend on the processing

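Of 274 values recomputed under alternatives, 217 kept their direction and their side of p = 0.05 in the exact permutation tests or, for counts, stayed within 1.5 times. In the high minus low tests, and in each test with 1 line left out, no p below 0.05 was possible. For these the side was fixed in advance above 0.05. The members numbered 1278 when 50 kb from any annotated gene was required, 210 when −log10 q had to reach 5, and 2701 with intervals of 5 kb or less, against 4982. The near-zero difference in median fold enrichment, desert minus gene body, turned positive at 25 kb (0.0059), away from any annotated gene (0.011), with the palindrome searched within 100 bp (0.00095), with a 3-base or 4-base spacer (0.0012), at a −log10 q of at least 2 (0.017), with intervals up to 5 kb (0.0056), and on chromosome 1 alone (0.046). The difference in median interval length, desert minus gene body, was 855.8 bp with −log10 q from 2 up, 39691 bp from 5 up, and -941 to 104 bp leaving out 1 line, positive without LOUCY. At a −log10 q of at least 5, sharing within 1 kb was 11.1 percentage points higher in deserts than in gene bodies, and the members' share of peaks was -5.20 percentage points, high minus low. Within 5 kb, sharing differed by -12.2 percentage points, desert minus gene body (exact sign-flip permutation test, p = 0.0312, 6 lines).

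The median length of members, high minus low, was -89.8 bp at 25 kb, -5043 bp with −log10 q from 2 up, -216655 bp with −log10 q from 5 up, -37 bp with intervals up to 5 kb, -574 bp on chromosome 1 alone, and -1414 to 1643.5 bp leaving out 1 line. The GC content of members, high minus low, was -0.547 percentage points with −log10 q from 2 up and -0.321 to 1.11 leaving out 1 line. The percent of members shared, high minus low, was 14.5 points by overlap of intervals and 3.74 points on chromosome 1 alone. The GC difference, desert minus gene body, was -2.68 to -2.06 points leaving out 1 line, where 5 lines cannot give a p below 0.0625. Leaving out the centromeric deserts, which like the restriction to chromosome 1 and a desert share expected per chromosome was chosen after seeing the data, turned no direction. The causes of these changes were not tested. With 1 library per line and no stated depth, a region absent from a list cannot be told from one below detection. No paired analysis was possible because the high and low groups hold different cell lines, and a replicate number only names a line in the order of deposit.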

Other observations

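The closest coincidence of 3 lines, chosen after its values were seen, was at chr1:161444948-161444950 (GRCh38), where the member summits of SUP-T13, LOUCY, and JURKAT lay within 2 bp of each other, with fold enrichments of 2.76 to 3.53. The site is between CFAP126 and FCGR2A, a gene for an Fc receptor, in an annotated long noncoding RNA gene. The GC content at the LOUCY summit was 65.3%, and its central 31 bases occurred 1 time on chromosomes 1 and 2. At 143239522 to 143239541 of chromosome 1, in the centromeric desert, the summits of KOPT-K1, DND-41, and JURKAT lay within 19 bp, with fold enrichments of 2.44 to 3.14.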
